A study of Mus musculus with 13 samples.

Results

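Genes that mark adipocytes or serve lipid storage were followed in CD45- stromal cells of the mouse thymus, to describe what these cells hold of perithymic fat or fat-forming fibroblasts before and after total body irradiation (TBI). The 10 genes, Adipoq, Plin1, Plin4, Cfd, Fabp4, Lpl, Pparg, Cidec, Lep and Cebpa, were matched by symbol to the 53379 genes of the count table, all 10 were found, and all 10 were among the 19984 genes that passed the filter on low counts. Bulk RNA-seq libraries came from 2-month-old wild-type C57BL/6 mice at steady state (4 libraries) and on days 1, 4 and 7 after sublethal TBI (3 libraries each). The CD45- cells had been enriched by depletion of CD45+ cells on beads and by sorting, a fraction meant to hold epithelial cells, endothelial cells and fibroblasts. The labels call the steady-state mice untreated, whereas the count table calls them controls given phosphate-buffered saline (PBS), each with a day (1, 4 or 7) and a replicate, by which they are named here. The study's methods speak of biological replicates for these bulk data, and the labels do not say from which animals each library came, so the p-values measure the spread between these libraries.

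White adipocytes keep triglyceride in a single large droplet, whose surface carries the perilipins and the CIDE proteins. Their program is set by the nuclear receptor PPARγ together with C/EBPα, and mature cells secrete adiponectin, leptin and adipsin into the blood. Some genes of the program are not private to adipocytes: capillary endothelial cells also use Fabp4, Cd36 and Pparg to take up fatty acids, and fibroblasts and macrophages also make lipoprotein lipase. The thymus lies in mediastinal fat and is itself replaced by fat with age.

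In the pairwise tests over all 13 libraries, Lpl was the only member called: it fell at day 1 and was higher at day 7 than at day 1. These calls were lost in 12 and 10 of the 13 fits that left out 1 library, and the test over the 4 conditions at once did not call Lpl (adjusted p = 0.0699, edgeR). The genes most particular to mature adipocytes (Adipoq, Cfd, Cidec and Plin1) spread most widely at steady state, where the highest library was 7.89-fold (Cidec) to 55.2-fold (Cfd) above the lowest, and 1 steady-state library, PBS day 4 replicate 2, decided whether Cfd and Cidec passed the test. Fabp4 and Pparg varied with each other over the libraries. Their Pearson's r with Adipoq was -0.37 and -0.47, and -0.54 and -0.69 after subtraction of the condition means. Levels below are CPM, counts scaled so that every library has the same total after trimmed mean of M-values (TMM) normalization, with the SD over libraries. A gene counted as changed in a comparison at a Benjamini-Hochberg adjusted p of 0.05 or less in edgeR's quasi-likelihood F-test, with no limit on the fold change.

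The sequences before the start sites of 3 genes whose levels moved together over the libraries (Adipoq, Cfd and Cidec) and of Lep are printed because Lep held the only match to a C/EBP motif. Each is the 250 bases before the RefSeq start site (GRCm38.p6), 5′ to 3′ on the strand of the gene, in lower case, and capitals mark the motif TTGCGCAA. Adipoq is at chr16:23146286-23146535 (+), Cfd at chr10:79890603-79890852 (+), Cidec at chr6:113435761-113436010 (-) and Lep at chr6:29059971-29060220 (+).
Adipoq: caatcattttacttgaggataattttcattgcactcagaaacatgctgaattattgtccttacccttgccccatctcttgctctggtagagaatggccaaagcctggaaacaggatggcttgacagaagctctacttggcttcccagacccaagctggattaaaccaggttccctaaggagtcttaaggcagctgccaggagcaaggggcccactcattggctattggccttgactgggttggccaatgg
Cfd: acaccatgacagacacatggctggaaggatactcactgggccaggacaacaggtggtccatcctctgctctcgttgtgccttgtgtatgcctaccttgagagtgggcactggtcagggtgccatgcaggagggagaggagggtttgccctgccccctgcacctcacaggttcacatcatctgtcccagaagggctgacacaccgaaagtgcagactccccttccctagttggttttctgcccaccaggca
Cidec: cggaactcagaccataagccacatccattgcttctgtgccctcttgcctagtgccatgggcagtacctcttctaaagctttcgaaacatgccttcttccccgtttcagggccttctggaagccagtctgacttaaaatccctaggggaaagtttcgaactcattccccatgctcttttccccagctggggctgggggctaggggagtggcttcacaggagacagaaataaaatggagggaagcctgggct
Lep: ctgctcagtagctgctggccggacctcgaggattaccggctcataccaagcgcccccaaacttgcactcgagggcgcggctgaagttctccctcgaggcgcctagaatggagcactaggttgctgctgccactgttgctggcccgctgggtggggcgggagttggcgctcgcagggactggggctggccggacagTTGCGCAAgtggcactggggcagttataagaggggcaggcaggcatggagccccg
The windows searched ran from 250 bases before to 50 bases after each start site, on both strands, for the C/EBP palindrome TTGCGCAA, the nuclear receptor motif AGGTCA, and DR1, a pair of such motifs in the same direction with 1 base between that PPARγ binds together with RXR. The table held windows for 8 of the 10 genes, and it had no entry for Fabp4 and Lpl. TTGCGCAA was found in Lep alone, with its first base 55 bases before the start site, and in 0.183% of all 32851 windows. AGGTCA, which was held by 16.3% of all windows, was found in 2 of the 3 windows of Pparg, 28 and 9 bases before the start sites. DR1 was in 0.0396% of all windows and in none of the members. These matches describe letters only.

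Per kilobase of the exonic length in the count table, the order of mean levels over the 13 libraries ran from Cfd to Lep over more than 3 orders of magnitude. Cfd stood at 337 ± 280 CPM per kb, Fabp4 at 127 ± 48.5 and Lpl at 55.2 ± 23.2 (SD, n = 13). Adipoq followed at 26.6 ± 17.8, Cidec at 12.2 ± 8.58 and Pparg at 8.56 ± 3.43 CPM per kb. Cebpa (2.46 ± 1.58), Plin1 (1.16 ± 1.03), Plin4 (0.492 ± 0.370) and Lep (0.0829 ± 0.0709) were lowest. Neighbours in this order differed by less than the sum of their SDs, apart from Fabp4 and Lpl, and Pparg and Cebpa, whose differences were slightly larger than that sum. The length used for Fabp4, 4489 bases, equals its whole span, which lowers its value on this scale. The genes thus lie at very different depths: the lowest and highest counts in a library were 5328 and 43277 for Lpl, 57 and 4025 for Adipoq, and 0 and 39 for Lep. Plin4, Pparg and Cebpa each overlap another annotated gene, and the sources used here do not state that reads were counted by strand, so that reads of the partner may be included.

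**Figure D1:**
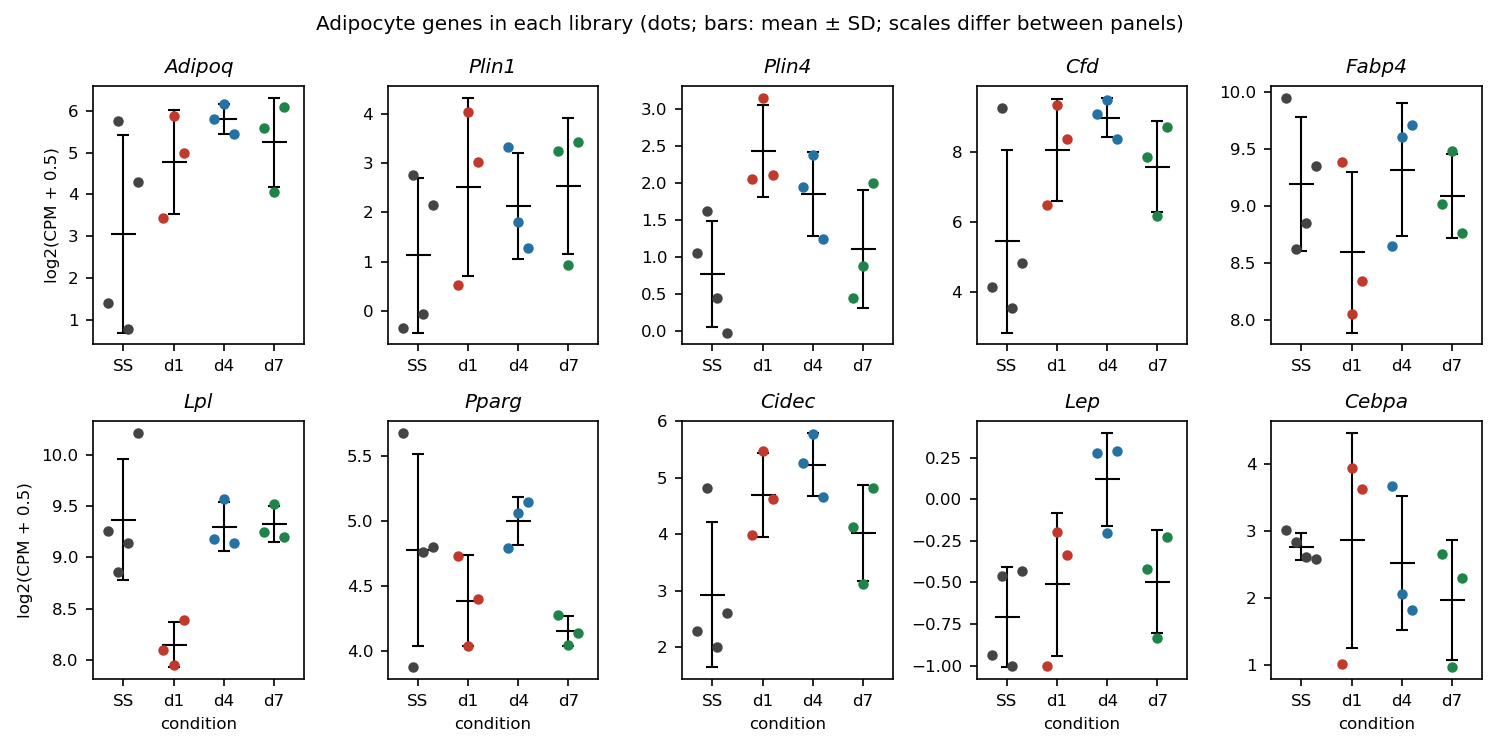
Levels of the 10 genes as log2(CPM + 0.5) in each of the 13 libraries (dots) by condition (SS, steady state; d1, d4 and d7, days after TBI), with the mean and SD as bars and a separate scale in each panel. The 3 day 1 libraries of Lpl, between 247 and 335 CPM, lie below all others, whereas the 4 steady-state libraries of Adipoq span 1.23 to 53.8 CPM.

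Adipoq encodes adiponectin, the hormone that is made nearly exclusively by adipocytes. At steady state it was at 2.13, 53.8, 1.23 and 19.1 CPM in PBS day 1 replicate 2, PBS day 4 replicate 2, PBS day 7 replicate 1 and PBS day 7 replicate 2. On day 1 the libraries of replicates 1, 2 and 3 had 10.4, 58.2 and 31.5 CPM. On day 4 they had 55.0, 70.7 and 43.3 CPM, and on day 7 47.9, 16.0 and 67.5 CPM. The 2 low steady-state libraries were below every library after TBI, but PBS day 4 replicate 2 stood among those of days 1, 4 and 7. Log2 fold changes against steady state were 0.80 ± 0.98 at day 1, 1.56 ± 0.98 at day 4 and 1.20 ± 0.98 at day 7 (SE; adjusted p = 0.719, 0.486 and 0.719, edgeR).

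Cfd, the gene of adipsin (complement factor D), repeated this pattern over a wider range. At steady state it was at 17.3, 613, 11.1 and 28.2 CPM in the same order of libraries. After TBI it was at 88.6, 640 and 330 CPM on day 1, at 540, 715 and 330 CPM on day 4, and at 230, 71.2 and 421 CPM on day 7. All 9 libraries after TBI were above 3 of the 4 steady-state libraries, while PBS day 4 replicate 2 was exceeded by 2 of the 9. The log2 fold change at day 4 was 1.66 ± 1.16 (SE, adjusted p = 0.525, edgeR), and those at days 1 and 7 were 1.08 ± 1.16 and 0.52 ± 1.16 (adjusted p = 0.676 and 0.953).

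Cidec promotes the growth of large lipid droplets. It was at 4.36, 27.9, 3.53 and 5.57 CPM at steady state, with the same library high. It was at 15.4, 43.7 and 24.0 CPM on day 1, at 38.1, 54.5 and 24.6 CPM on day 4, and at 16.9, 8.22 and 27.8 CPM on day 7. Every library after TBI was thus above the 3 lower steady-state libraries. Log2 fold changes were 1.42 ± 0.68 at day 1, 1.92 ± 0.68 at day 4 and 0.77 ± 0.67 at day 7 (SE; adjusted p = 0.305, 0.278 and 0.752, edgeR).

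Without PBS day 4 replicate 2, the steady-state level was that of the 3 lower libraries, and Cfd and Cidec rose past the threshold. Cfd then differed from steady state by a log2 fold change of 4.23 at day 1, 4.81 at day 4 and 3.68 at day 7 (adjusted p = 0.0128, 0.0232 and 0.0472, edgeR). Cidec differed by 2.63 at day 1 and 3.13 at day 4 (adjusted p = 0.0150 and 0.0214) and by 1.98 at day 7 (adjusted p = 0.0664). Adipoq did not pass the test without this library either, with log2 fold changes of 2.17, 2.93 and 2.57 (adjusted p = 0.211, 0.173 and 0.186). The labels describe the 4 steady-state samples alike, but the column name of this library is the only one of them that gives day 4 and that carries a tag of the k3 family, which 4 libraries after TBI also carry and whose meaning the sources used here do not give. With the tag family as a covariate, the log2 fold changes of Cfd were 2.40, 2.17 and 1.31 at days 1, 4 and 7 and those of Cidec 1.90, 1.95 and 0.81, and none passed the test (adjusted p = 0.189 to 0.863, edgeR). The library is kept in all other values given here.

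**Figure D2:**
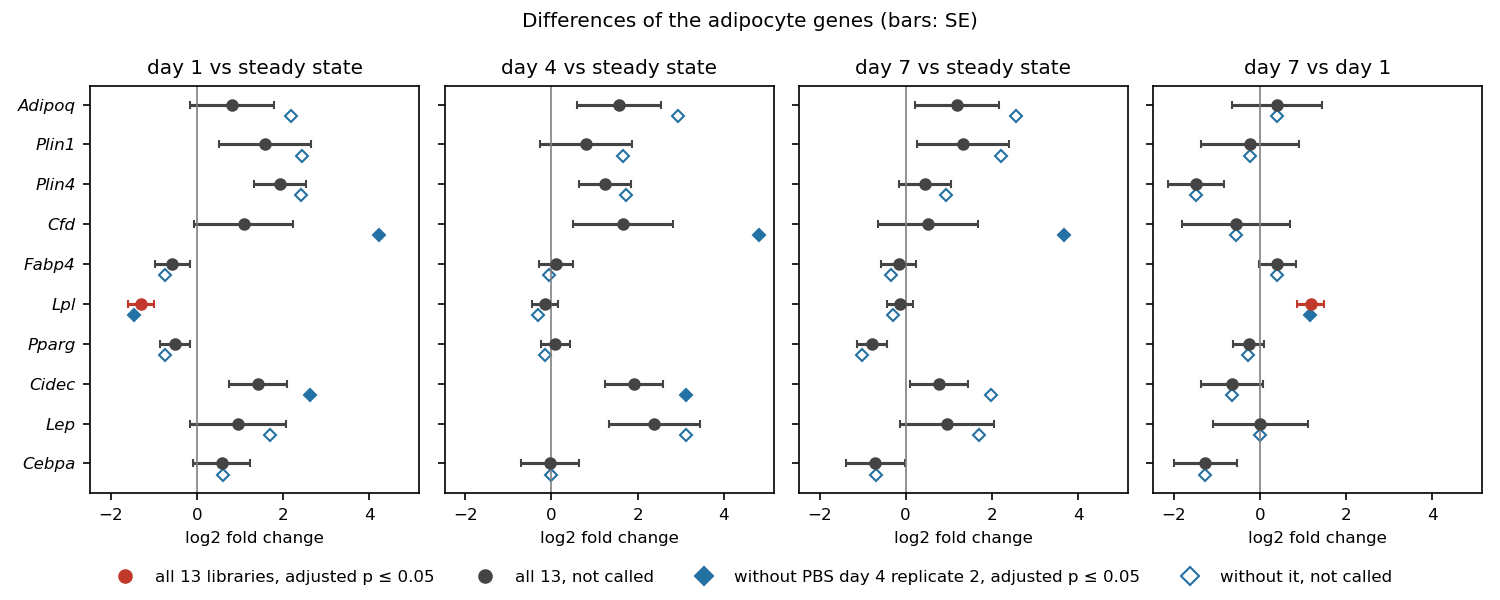
Log2 fold changes of the 10 genes in 4 comparisons in the fit of all 13 libraries (dots with SE; red, adjusted p of 0.05 or less) and in the fit without PBS day 4 replicate 2 (diamonds; filled, adjusted p of 0.05 or less). Lpl is the only red gene, at -1.31 for day 1 against steady state and 1.17 for day 7 against day 1, and the Cfd diamonds lie at 4.23, 4.81 and 3.68 for the comparisons with steady state.

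Perilipin 1 (Plin1) guards the droplet of adipocytes against lipolysis. Plin1 was at 0.285, 6.30, 0.452 and 3.92 CPM at steady state, at 0.933, 15.8 and 7.58 CPM on day 1, at 9.55, 2.97 and 1.91 CPM on day 4, and at 8.94, 1.41 and 10.3 CPM on day 7. High and low libraries occurred in every condition, and no log2 fold change passed the test (1.57 ± 1.07 at day 1, SE, adjusted p = 0.484, edgeR). Perilipin 4 (Plin4), which coats nascent droplets, was at 1.58, 2.58, 0.861 and 0.484 CPM at steady state and at 3.65, 8.41 and 3.81 CPM on day 1. The day 1 libraries all exceeded those at steady state, but the log2 fold change of 1.92 ± 0.61 did not pass the test (SE, adjusted p = 0.128, edgeR); in DESeq2 its adjusted p was 0.0205. Plin4 was at 3.36, 4.69 and 1.87 CPM on day 4 and at 0.861, 1.33 and 3.50 CPM on day 7, when its libraries were all below those of day 1 (log2 fold change of -1.48 ± 0.66 against day 1, SE, adjusted p = 0.187, edgeR).

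Leptin (Lep), the satiety hormone of white fat, was close to the limit of detection. It had 1, 9, 0 and 5 counts in the steady-state libraries and 0, 8 and 14 counts in those of day 1. It had 11, 21 and 39 counts on day 4 and 12, 3 and 13 counts on day 7. Counts of 3 or fewer were taken as the floor, and 4 of the 13 libraries were at or under it. In CPM, the 3 day 4 libraries (0.710, 0.369 and 0.722) lay above all 4 at steady state (0.0219, 0.225, 0 and 0.242), with a log2 fold change of 2.39 ± 1.06 that did not pass the test (SE, adjusted p = 0.370, edgeR).

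Lipoprotein lipase (Lpl) releases fatty acids from circulating triglyceride at the capillary wall. It was at 609, 464, 562 and 1190 CPM at steady state and at 274, 247 and 335 CPM on day 1. On day 4 it was at 579, 760 and 563 CPM, and on day 7 at 609, 735 and 589 CPM. The day 1 libraries were below every other library, and those of days 4 and 7 overlapped those at steady state. Lpl fell by 1.31 ± 0.31 on the log2 scale at day 1 (SE, adjusted p = 0.0453, edgeR). Among all genes tested, 2.35% were called in that comparison, and Lpl was 1 of the 10 members. At day 7 Lpl was 1.17 ± 0.32 higher than at day 1 on the log2 scale (SE, adjusted p = 0.0431), in a comparison that called 8.13% of all genes. Against day 1, day 4 was higher by 1.15 ± 0.32 without passing the test (adjusted p = 0.118). Days 4 and 7 differed from steady state by -0.16 ± 0.30 and -0.13 ± 0.30 on the log2 scale (adjusted p = 0.833 and 0.955).

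Both calls of Lpl lay just inside the threshold, and the call of day 7 against day 1 held in 3 of the 13 fits without 1 library. The fall at day 1 kept a log2 fold change between -1.46 and -0.93 when any 1 library was left out, but only without PBS day 4 replicate 2 did the adjusted p stay at 0.05 or less. The lowest of these values was found without PBS day 4 replicate 2 and the highest without PBS day 7 replicate 2, the library at 1190 CPM. With each library's trend with GC content removed, the log2 fold changes were -1.19 at day 1 and 0.99 for day 7 against day 1 (adjusted p = 0.128 and 0.124). In bulk libraries, fewer cells of a type and less RNA per cell cannot be told apart. Beside this fall, the summed level of the 11 thymocyte markers was 239 to 782 CPM at steady state, 114 to 147 CPM on day 1 and 213 to 4961 CPM on day 7, and that of the 7 erythroid markers was 21382 to 36980, 4178 to 18303 and 2953 to 8490 CPM. The summed level of 16 genes of fat-forming fibroblasts was 7231 to 12739 CPM at steady state and 11841 to 20425 CPM on day 1, but without Ly6a the other 15 summed to 6468 to 11353 and 7815 to 9464 CPM, and the median log2 fold change of the list was -0.41. The part of these cells in the level of Lpl was not tested.

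Fabp4, the fatty acid carrier of adipocytes and of capillary endothelium, was abundant in every library. It was at 987, 394, 463 and 651 CPM at steady state, at 668, 265 and 324 CPM on day 1, at 401, 776 and 836 CPM on day 4, and at 517, 716 and 435 CPM on day 7. The conditions overlapped, and the highest library was 3.72-fold above the lowest, compared with 57.6-fold for Adipoq and 64.4-fold for Cfd. The largest difference from steady state was a log2 fold change of -0.57 ± 0.40 at day 1 (SE, adjusted p = 0.499, edgeR).

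Pparg, the nuclear receptor that directs fat cell formation, was at 50.7, 14.2, 26.6 and 27.4 CPM at steady state and at 26.0, 15.9 and 20.6 CPM on day 1. It was at 27.2, 32.9 and 34.8 CPM on day 4 and at 18.9, 16.1 and 17.2 CPM on day 7. The day 4 libraries were all above those of day 1 and of day 7. These differences did not pass the test (log2 fold changes of 0.60 ± 0.36 against day 1 and, for day 7 against day 4, -0.87 ± 0.36, SE, adjusted p = 0.505 and 0.218, edgeR). Cebpa, its partner in adipocytes, was even at steady state (7.59, 6.68, 5.62 and 5.52 CPM) and uneven after TBI. It was at 1.53, 14.9 and 11.9 CPM on day 1, at 12.2, 3.69 and 3.05 CPM on day 4, and at 5.83, 1.45 and 4.42 CPM on day 7. The largest difference was a log2 fold change of -1.27 ± 0.73 at day 7 against day 1 (SE, adjusted p = 0.317, edgeR).

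Cebpa has the most GC of the 10 genes (62.6% of its longest transcript), and its level moved with a feature of the libraries. In each library, the deviation of log2(CPM + 0.5) from the mean over libraries was taken for the 10% of genes richest in GC. Its median was -0.48 in day 1 replicate 1, -0.23 and -0.22 in day 4 replicates 2 and 3, and -0.11 in day 7 replicate 2. The other 9 libraries were between 0.032 and 0.20. The same 4 libraries had the 4 lowest levels of Cebpa, at 1.45 to 3.69 CPM, and the others were at 4.42 to 14.9 CPM. They were also the lowest libraries of Plin1 in their own conditions, but PBS day 1 replicate 2 and PBS day 7 replicate 1 were lower still, at 0.285 and 0.452 CPM. The medians of these PBS libraries were 0.12 and 0.15. Day 1 replicate 1 and day 7 replicate 2 were also the lowest of their conditions for Adipoq, Cfd and Cidec. Over the 13 libraries, Pearson's r of the level with the median was 0.83 for Cebpa, 0.42 for Plin1 and -0.58 for Fabp4. For the other members it was between -0.21 (Pparg) and 0.12 (Lep). The same 4 libraries were the highest of their own conditions for Fabp4, at 668 CPM on day 1, 776 and 836 CPM on day 4 and 716 CPM on day 7. With the GC trends removed, the log2 fold change of Cebpa at day 7 against day 1 was -1.22 and that of Plin1 at day 1 against steady state was 1.32 (adjusted p = 0.154 and 0.605, edgeR). Cebpa also varied with Epcam, a gene of epithelial cells with 52.7% GC (r = 0.85 over the 13 libraries). The part of GC content in these levels was not tested further, and that of epithelial cells was not tested.

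**Figure D3:**
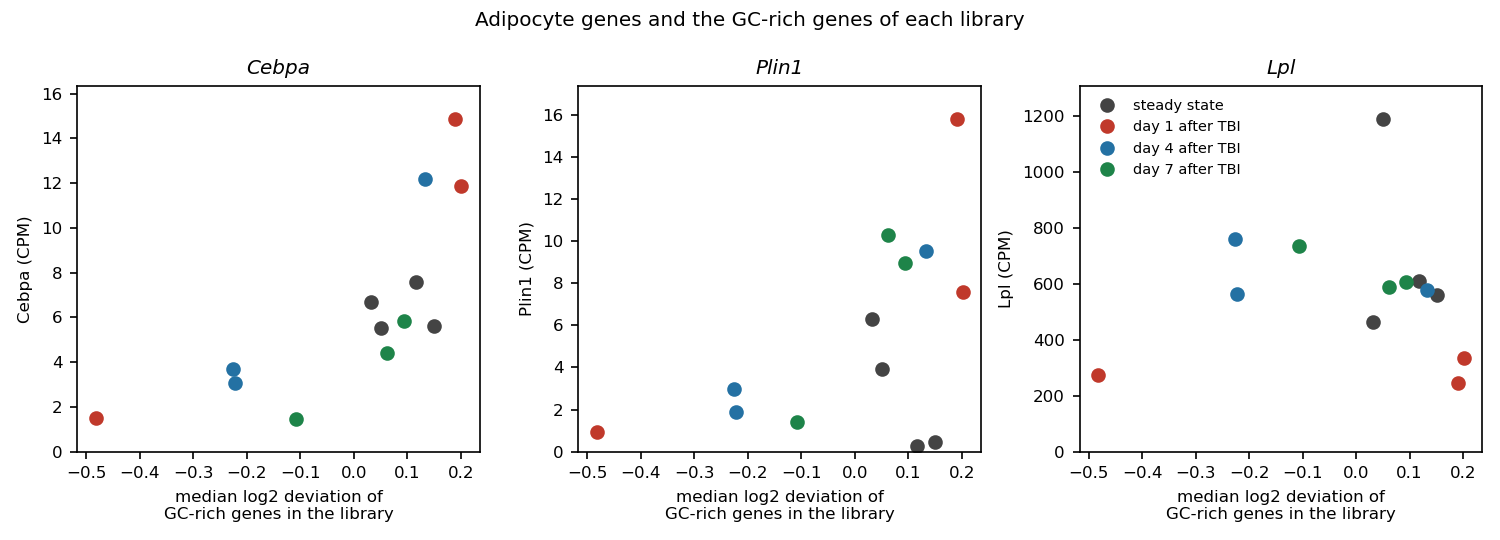
CPM of Cebpa, Plin1 and Lpl (y axes, from 0) in the 13 libraries against the median log2 deviation of the 10% of genes richest in GC in the library (x axes), coloured by condition. The 4 libraries left of 0 hold the 4 lowest values of Cebpa, 1.45 to 3.69 CPM, whereas for Lpl the 3 day 1 libraries are low on both sides.

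The members as a list showed the following counts. In the test over the 4 conditions at once, none of the 10 was called, against 6.66% of all genes, and 2 had an unadjusted p under 0.05 (Lpl 0.00630 and Plin4 0.0328); DESeq2 called 2 members. At day 1 against steady state, 1 member fell and none rose, against 2.35% of all genes called. The libraries of 2 members did not overlap there, against 15.8% of all genes. At day 4 none was called, against 0.290% of all genes, and DESeq2 called none. An unadjusted p under 0.05 was found for 2 members and for 2602 of all 19984 genes tested. Only Lep of the 10 did not overlap there, against 14.7%. At day 7 none was called, against 0.00500%, DESeq2 called none, and none was free of overlap, against 7.49%. An unadjusted p under 0.05 was found there for 1 member and for 2691 of the 19984 genes. The median log2 fold changes of the 10 members were 0.87, 1.02 and 0.48 at days 1, 4 and 7, and those of all genes tested were -0.10, -0.13 and 0.0024.

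Between days after TBI, 1 member rose from day 1 to day 7, against 8.13% of all genes called. None was called between days 1 and 4, against 1.43% of all genes, or between days 4 and 7, against 3.90%. In each of these comparisons 1 member had an unadjusted p under 0.05, as had 2729 and 3735 of the 19984 genes tested. DESeq2 called 1 member for day 4 against day 1, Lpl, and none for day 7 against day 4. The libraries of 2 members did not overlap in each of the 3 comparisons, against 26.3% of all genes for day 4 against day 1, 27.5% for day 7 against day 1 and 26.2% for day 7 against day 4. The comparisons share libraries, so their values are not independent of each other.

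Over the 13 libraries the members fell into genes that rose and fell with Adipoq and genes that did not. Levels of Cfd and Cidec were the most closely related of the 45 pairs of members, with Pearson's r = 0.98 and Spearman's rho = 0.99 of log2(CPM + 0.5) (permutation p = 1e-05 for both, the smallest that 100000 permutations can give; adjusted p = 0.00045). Adipoq and Cfd had r = 0.93 (permutation p = 3e-05, adjusted p = 0.000675) and rho = 0.92 (permutation p = 5e-05). Without the 2 libraries farthest from the median of the first gene, r was 0.96 for Cfd and Cidec and 0.86 for Adipoq and Cfd. Within conditions, after subtraction of the condition means, r was 0.98 and 0.90. Each pair therefore varied together among libraries of the same condition.

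The ratio of Cfd to Adipoq, in CPM, was 7.61 to 11.4 in 9 of the 13 libraries. It was 4.81, 4.45 and 6.23 in the 3 day 7 libraries and 1.48 in PBS day 7 replicate 2, whereas PBS day 7 replicate 1 was at 9.05. Day 7 thus lay below all libraries of days 1 and 4 in this ratio, a comparison chosen after its values were seen and not tested. Of the 5 genes whose pattern was most like that of Adipoq among all genes tested, Car3, a carbonic anhydrase abundant in white fat, led with r = 0.98, ahead of Tshr, Cyp2e1, Pon1 and Cfd (r = 0.93 each). Car3 was at 21.1 to 393 CPM at steady state and at 72.1 to 817 CPM after TBI.

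**Figure D4:**
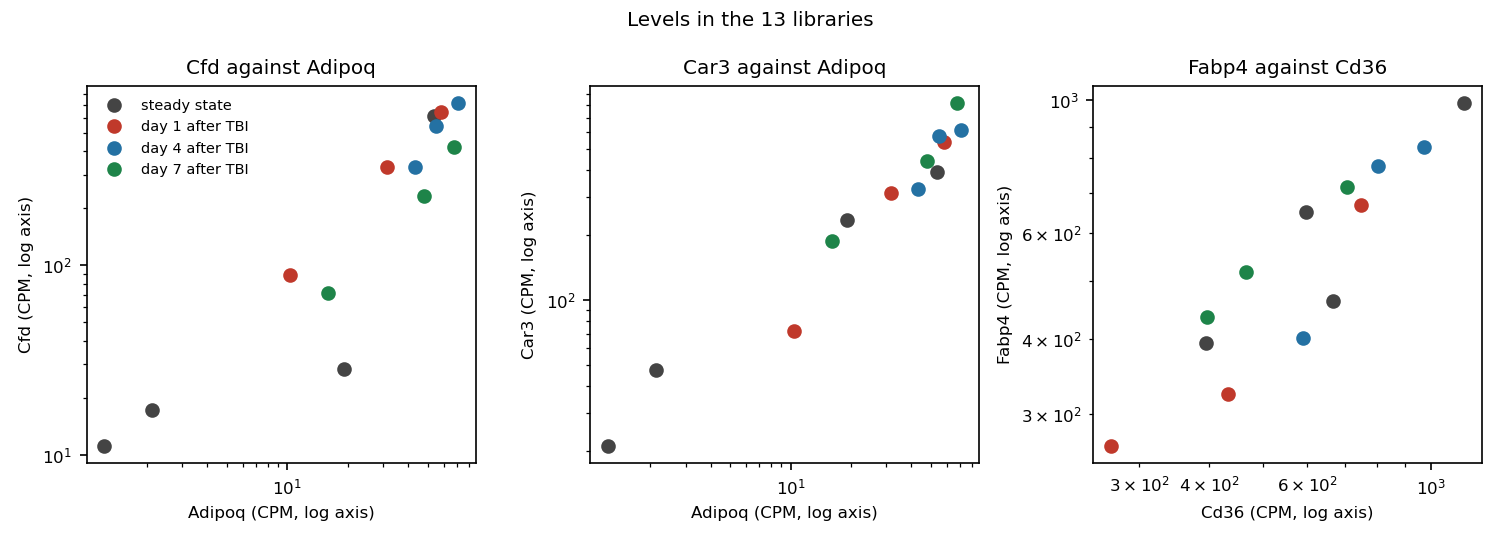
CPM in the 13 libraries on log axes, coloured by condition, for Cfd against Adipoq, Car3 against Adipoq and Fabp4 against Cd36. In the first panel, 3 steady-state libraries lie at 28.2 CPM of Cfd or lower and the other, PBS day 4 replicate 2, at 613 CPM among the libraries after TBI.

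Fabp4 and Pparg varied with each other. Their r was 0.70 (permutation p = 0.00835, adjusted p = 0.0268) and rho 0.69 (permutation p = 0.0107), and r was 0.50 without the 2 libraries farthest from the median of Fabp4. Within conditions it was 0.76. With Adipoq, r was -0.37 for Fabp4 and -0.47 for Pparg (permutation p = 0.223 and 0.107), and within conditions -0.54 and -0.69. Within conditions, r with Cfd was -0.62 for Fabp4 and -0.73 for Pparg. Fabp4 and Plin1 ran in opposite directions, with r = -0.74 (permutation p = 0.00476, adjusted p = 0.0238) and rho = -0.74 (permutation p = 0.00526), and r was -0.84 without the 2 libraries farthest from the median of Plin1. They also ran in opposite directions with the deviation of GC-rich genes in the library (r = -0.58 for Fabp4 and 0.42 for Plin1). The part of GC content in this pair was not tested. The genes most like Fabp4 were Gpihbp1 (r = 0.93), which carries lipoprotein lipase across capillary endothelium, D730003I15Rik, Cd36 (r = 0.91), a fatty acid transporter, Gm44694 and Rgp1. Those most like Pparg were 2900052N01Rik, Deptor, Gm34280, Hhip and Amph (r = 0.91 to 0.94). Those most like Lpl were D3Ertd751e, Gprasp1, Gm49359, Usp11 and Zfp882 (r = 0.92 to 0.94). The endothelial markers Pecam1 and Cdh5 had r = 0.42 and 0.49 with Fabp4, and 0.37 and 0.71 with Pparg. These likenesses over 13 libraries are a description, and the libraries share the effects of condition, depth and GC content.

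**Figure D5:**
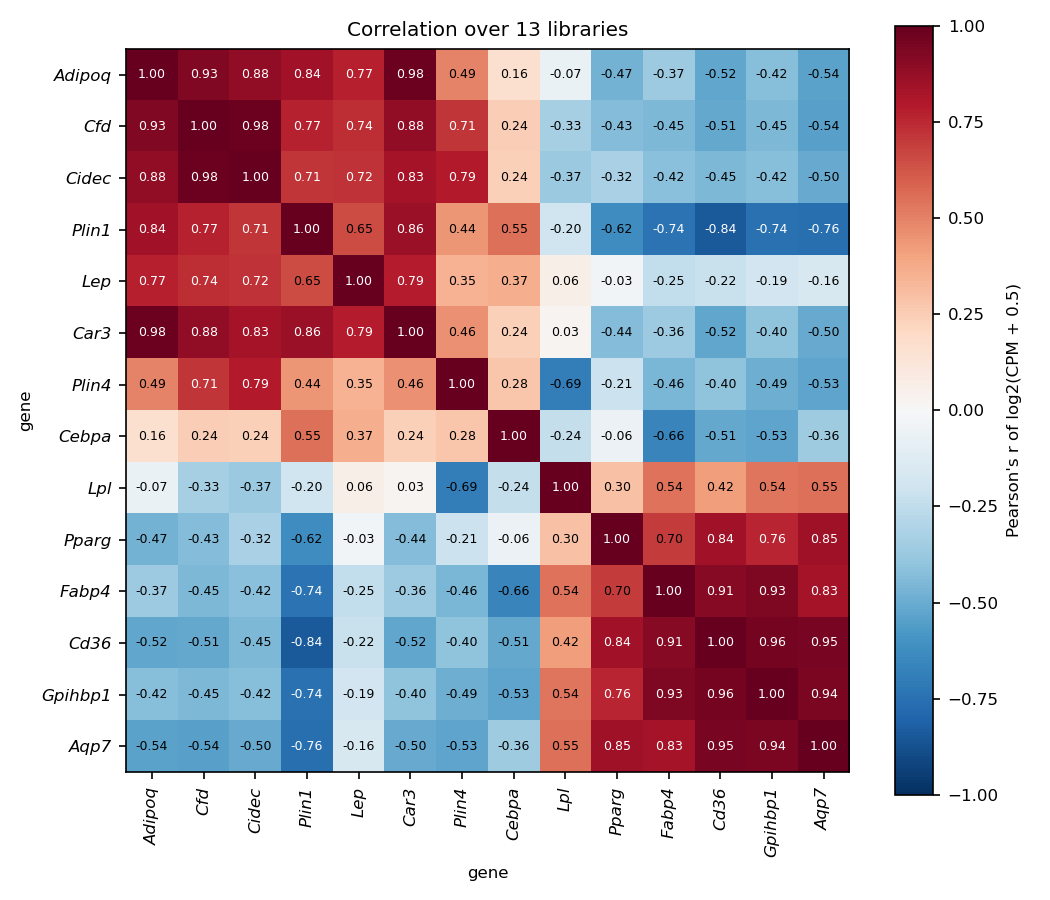
Pearson's r of log2(CPM + 0.5) over the 13 libraries between the 10 members and Car3, Cd36, Gpihbp1 and Aqp7 (rows and columns; red positive, blue negative, value in each cell). Adipoq, Cfd, Cidec, Plin1, Lep and Car3 form a block of r from 0.65 to 0.98, and Pparg, Fabp4, Cd36, Gpihbp1 and Aqp7 another from 0.70 to 0.96. Car3 was the gene most like Adipoq, and Gpihbp1 and Cd36 were among those most like Fabp4. Gpihbp1 and Aqp7 were added after their values were seen.

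Other genes of fat were read in lists. Of 12 factors of fat cell formation, such as Cebpb, Cebpd, Srebf1, Ebf2 and Klf15, all passed the filter and none was called in any of the 6 comparisons, with 0 to 3 at an unadjusted p under 0.05. Srebf1, a regulator of lipid synthesis, differed from steady state by 0.058 on the log2 scale at day 1 and 0.67 at day 4 (adjusted p = 0.945 and 0.366, edgeR). Of 13 genes of droplet coats and lipolysis, 1 rose at day 1 and 1 fell from day 1 to day 7, in both cases Plin2, the perilipin of droplets in many cell types, against 2.35% and 8.13% of all genes called. Plin2 was at 122, 141, 122 and 140 CPM at steady state and at 390, 203 and 208 CPM on day 1. All day 1 libraries were above those at steady state, with a log2 fold change of 1.02 ± 0.24 (SE, adjusted p = 0.0395, edgeR). From day 1 to day 7 Plin2 fell by 1.25 ± 0.26 on the log2 scale (adjusted p = 0.0134). The list's median log2 fold change at day 1 was 0.33, against -0.10 for all genes. The day 1 call of Plin2 was lost with the GC trends removed, with total counts only and with only the conditions compared. It also held in only 6 of the 13 fits without 1 library, those without PBS day 4 replicate 2, day 1 replicate 2 or 3, day 4 replicate 1 or day 7 replicate 1 or 2. The call at day 7 against day 1 was lost without day 7 replicate 2 or 3, with only the conditions compared and with a block for the replicate number.

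Of 22 genes of lipid uptake and synthesis, none was called against steady state at any day, with 2, 10 and 4 at an unadjusted p under 0.05 at days 1, 4 and 7. Of all 19984 genes tested, 3444, 2602 and 2691 had such a p. From day 4 to day 7, when 3.90% of all genes were called, 1 of the 22 fell, Slc2a4, the insulin-responsive glucose transporter of fat and muscle. It was at 41.0, 34.7 and 37.5 CPM on day 4 and at 17.2, 12.8 and 11.3 CPM on day 7. All day 4 libraries were above every other library, and the fall to day 7 was 1.46 ± 0.31 on the log2 scale (SE, adjusted p = 0.0258, edgeR). The call was lost in each of the fits without day 4 replicate 2 or 3 or day 7 replicate 2 or 3, and the log2 fold change over all fits without 1 library was -1.65 to -1.42. It was also lost with a block for the replicate number. Cd36, the most abundant of the list, differed from steady state by -0.54, 0.17 and -0.42 on the log2 scale (adjusted p = 0.525, 0.868 and 0.782). Of 9 adipokines and receptors, Nampt fell from day 1 to day 7 by 1.02 ± 0.23 (adjusted p = 0.0204), against 8.13% of all genes called, and no other comparison called any. This call of Nampt was lost without day 1 replicate 1 or day 7 replicate 2 or 3. It was also lost with total counts only, the tag family as a covariate, only the conditions compared or a block for the replicate number. Of 14 further genes of white adipocytes, 13 were tested. Among them Orm1, an acute phase protein, fell from day 1 to day 7 by 2.80 ± 0.59 on the log2 scale (adjusted p = 0.0145), against the same 8.13% of all genes. This call was lost without day 1 replicate 1 or day 7 replicate 2 and with the tag family as a covariate. Car3 differed from steady state by 0.83, 1.54 and 1.47 at days 1, 4 and 7 (adjusted p = 0.656, 0.445 and 0.533). Ces1d, the other most abundant gene of this list, differed by -0.99, 0.75 and 0.03 (adjusted p = 0.263, 0.445 and 0.994, edgeR). From day 1 to day 4 Ces1d was higher by 1.74 without passing the test (adjusted p = 0.0973).

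Brown adipocyte genes were low, and 10 of 12 passed the filter. None was called in any comparison. Prdm16, one of the most abundant of the list, differed from steady state by -0.59, -0.12 and -0.36 on the log2 scale at days 1, 4 and 7 (adjusted p = 0.323, 0.868 and 0.711, edgeR). Dio2 differed by 1.23, -0.80 and 0.03 (adjusted p = 0.162, 0.441 and 0.996), and for day 4 against day 1 by -2.03 (adjusted p = 0.0585). Ucp1, the uncoupling protein that defines brown fat, was at 10.6 CPM in PBS day 1 replicate 2, 11.2 CPM in day 1 replicate 1 and 15.8 CPM in day 4 replicate 2. The other 10 libraries were at 0.407 to 2.78 CPM. Of these 3 libraries, day 4 replicate 2 had the highest Adipoq of all libraries and PBS day 1 replicate 2 the next to lowest. Cidea, a droplet protein typical of brown fat, was at 16.6 CPM in day 4 replicate 2 and at 0.515 to 5.07 CPM in the others.

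All 16 genes of fat-forming fibroblasts were tested, and at day 1, 2 of the 16 rose, against 2.35% of all genes called. Ly6a (Sca-1), a surface protein of adipogenic progenitors that interferon also induces, was at 574 to 1386 CPM at steady state and at 10961, 4645 and 4006 CPM on day 1. The study also lists Ly6a among the genes of a subset of medullary thymic epithelial cells, so it is not particular to fibroblasts in these libraries. Its log2 fold change was 2.85 ± 0.41 (SE, adjusted p = 0.00190, edgeR), and the call held without any 1 of the 13 libraries. Pdgfrb, a receptor of perivascular and progenitor cells, rose by 1.68 ± 0.28 (adjusted p = 0.00547), and its log2 fold change was 1.64 with the GC trends removed and 1.63 with only the conditions compared, where the adjusted p of 0.0507 and 0.0604 did not pass. The median of the list at day 1 was -0.41. Pdgfra, the receptor that marks most thymic fibroblasts, was at 616 to 1282 CPM and differed from steady state by 0.37, -0.05 and -0.14 on the log2 scale at days 1, 4 and 7 (adjusted p = 0.411, 0.932 and 0.921).

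From day 1 to day 7, 3 of the 16 fibroblast genes rose and 2 fell, against 8.13% of all genes called. Inmt and Dpp4, a marker of interstitial progenitors, were among those that rose, by 2.18 ± 0.62 and 1.48 ± 0.40 on the log2 scale (SE, adjusted p = 0.0476 and 0.0385, edgeR). Each of these 2 calls was lost in 9 of the 13 fits without 1 library. That of Inmt held without PBS day 1 replicate 2, PBS day 4 replicate 2, day 1 replicate 3 or day 4 replicate 1, and that of Dpp4 without PBS day 1 replicate 2, PBS day 4 replicate 2, PBS day 7 replicate 2 or day 1 replicate 1. Of 9 other settings, 5 lost the call of Inmt and 3 that of Dpp4. Ly6a and Pdgfrb fell by 2.77 ± 0.46 and 1.83 ± 0.31 (adjusted p = 0.00522 and 0.00588), calls that held without any 1 library. From day 1 to day 4, Inmt rose by 3.17 ± 0.64 and Ly6a fell by 2.35 ± 0.45 (adjusted p = 0.0274 and 0.0187), against 1.43% of all genes called. The call of Inmt was lost without day 1 replicate 1 or 2 or day 4 replicate 2 or 3, and that of Ly6a without day 1 replicate 1 or any 1 of the day 4 libraries. Both were also lost with only the conditions compared and with the replicate block, and that of Inmt with the tag family as a covariate. Apod, a lipid-binding protein, fell from day 4 to day 7 by 2.22 ± 0.41 (adjusted p = 0.0142), a call lost without day 4 replicate 2 or 3 or day 7 replicate 2 or 3 and with the replicate block. None of the 16 was called at days 4 and 7 against steady state, with 4 and 2 at an unadjusted p under 0.05. Of all 19984 genes tested, 2602 and 2691 had such a p.

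Other cell types differed between the libraries. The summed level of the 10 endothelial markers was 1273 to 1892 CPM over all libraries, and none of them was called in any comparison. Some markers varied far more than the sum: Plvap was at 21.5 to 508 CPM, Kdr at 89.3 to 438 CPM and Cldn5 at 18.5 to 132 CPM. Each of these was lowest in day 1 replicate 1, where Pecam1 was at its highest. Pecam1 was at 199 to 432 CPM and Epcam, of epithelial cells, at 14.0 to 155 CPM, so that each labelled lineage was present. The summed level of mesothelial markers was 602 to 4615 CPM at steady state, with its low in PBS day 1 replicate 2, and 1669 to 4192 CPM after TBI. Macrophage markers summed to 75.4 to 202 CPM, with Adgre1 at 0.308 to 4.57 CPM. Ptprc, the gene of CD45 that the sort selects against, was at 4.07 to 4.54 CPM on day 4 and at 606 and 224 CPM in day 7 replicates 2 and 3. Of these lists, 2 macrophage markers were called higher at day 1, 4 thymocyte markers lower at day 4, and 3 and 7 erythroid markers lower at days 1 and 4 against steady state, whereas no epithelial, mesothelial, smooth muscle or neutrophil marker was called against steady state in edgeR, with 0 to 3 of each list at an unadjusted p under 0.05. The day 1 calls of the macrophage markers Cd14 and Fcgr1 were lost in 9 and 8 of the 13 fits without 1 library, and that of the erythroid marker Alas2 in 8. Fcgr1 averaged only 0.82 CPM on day 1. Between days after TBI, 3 of 10 epithelial markers (Krt5, Ccl21a and H2-Aa) fell from day 4 to day 7, beside the falls of Slc2a4 and Apod, by 2.61, 2.25 and 2.13 on the log2 scale (adjusted p = 0.0135, 0.0245 and 0.0438, edgeR). These 3 calls were lost in 3, 4 and 7 of the 13 fits without 1 library. From day 1 to day 7, beside the falls of Plin2, Nampt and Orm1, 3 of the 6 neutrophil markers tested (Ly6g, Mpo and S100a9), 1 epithelial marker (Ccl21a), 1 macrophage marker and 1 smooth muscle marker (Tagln) fell, and all 11 thymocyte and 2 of 7 erythroid markers rose. The calls of S100a9, Ccl21a and Tagln were lost in 9, 5 and 5 of the 13 fits without 1 library, and those of Ly6g and Mpo in none. All 11 thymocyte and all 7 erythroid markers rose from day 4 to day 7. From day 1 to day 4, beside the changes of Inmt and Ly6a, 3 thymocyte markers, 1 smooth muscle marker (Tagln) and all 7 erythroid markers fell. In this comparison the call of Tagln was lost in 7 of the 13 fits without 1 library. Of all genes tested, 2.35% and 0.290% were called at days 1 and 4 against steady state. Between days after TBI, 1.43% were called from day 1 to day 4, 8.13% from day 1 to day 7 and 3.90% from day 4 to day 7. Total counts ran from 15721866 to 52056896 per library. The part of these cells in the levels of the adipocyte genes was not tested.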

How the data were processed

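RNA-seq counts of 13 libraries of CD45- thymic cells were analysed, with conditions taken from the labels. Per the labels and the study's methods, reads were trimmed (Trimmomatic 0.38), aligned by the authors to GRCm38.p5 (STAR 2.7.0e) and assigned to genes (featureCounts 1.6.3), and the deposited counts are whole numbers without normalization. The exonic length per gene that the authors deposited gave CPM per kb. The 10 members and all lists (factors of fat cell formation, droplet coat and lipolysis, lipid uptake and synthesis, adipokines, other white, brown and fat-forming fibroblast genes, and markers of other cell types) were chosen with earlier results of these data known.

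All libraries entered 1 fit in edgeR 4.0.16 (R 4.3.3) with a term for condition. TMM factors scaled the libraries, filterByExpr() removed low genes by condition, and quasi-likelihood F-tests were adjusted over all 19984 genes tested. The SE is the size of the log2 fold change divided by the square root of F. The analysis steps were tested on simulated data. All members were described. From each other list, at most 4 called genes with the largest changes were chosen for naming, or the 2 most abundant where none was called. Not all of the genes so chosen are given. Ucp1, Ptprc, Epcam, Pecam1, Pdgfra and Adgre1 were named as well. Slc2a4 and Plin2 were also described by library, and Cidea, Gpihbp1, Aqp7, Plvap, Kdr and Cldn5 were added after their values were seen. Correlations used log2(CPM + 0.5) and 100000 permutations, two-sided.

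The alternatives were DESeq2 1.42.0, RLE normalization, total counts only, no filter, at least 10 counts in every library, the tag family of the column name (k3, kk or neither) as a covariate, a block for the replicate number, a fit limited to both conditions of a comparison, and leaving out each library. Removal of each library's GC trend (lowess span 0.3, longest GENCODE M21 transcript) was added after seeing the data. The same-numbered libraries after TBI did not deviate together, so the numbers were not taken to pair them. Symbols were found for 53274 of 53379 genes. Promoter windows came from RefSeq (GRCm38.p6). The libraries most alike differed by 42.5 times the sampling noise (chi-square per degree of freedom). Python 3.11.15, pandas 2.3.3, numpy 2.4.6 and matplotlib 3.10.9 were used for tables and plots.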

Additional observations from a re-analysis of the deposited data

Results flagged for a closer look

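At steady state, 16 genes (the 10 members and Ucp1, Ptprc, Epcam, Pecam1, Pdgfra and Adgre1) were searched with Dixon's ratio for 1 library apart from the other 3. Chance gives such an excess in about 1 of 20 groups if values are normally distributed, or 0.8 over the 16 genes. CPM that differ many-fold within a condition may exceed that rate, and Cfd and Cidec varied together, so their results are not independent. Cfd was at 613 CPM in PBS day 4 replicate 2, and the other 3 libraries were at 11.1 to 28.2 CPM (ratio 0.972). Cidec was at 27.9 CPM in the same library and at 3.53 to 5.57 CPM in the others (ratio 0.916). Ucp1 was at 10.6 CPM in PBS day 1 replicate 2 and at 1.02 to 2.08 CPM in the others (ratio 0.890).

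Lpl differed between time points after TBI: its difference from steady state at day 7 exceeded that at day 1 by 1.17 on the log2 scale (adjusted p = 0.0431, edgeR), and all 3 day 7 libraries were above all 3 of day 1.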

How the results depend on the processing

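Over all alternatives, 1188 of 1282 log2 fold changes of the members kept their sign and their side of the threshold, 30 lost a call, 8 gained one and 56 took the other sign, none of the 56 called before or after. The limits are the 3 or 4 libraries per condition, levels of adipocyte genes that differ many-fold within a condition, and 2 calls of Lpl close to the threshold. The cause of the changes below was not tested.

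With DESeq2, the genes called were 3665 over the 4 conditions (1330 in edgeR), 1399 at day 1 (469), 645 at day 4 (58) and 1081 at day 7 against steady state (1), 960 for day 4 against day 1 (285), 2940 for day 7 against day 1 (1625) and 1919 for day 7 against day 4 (779), with 2 members called over the 4 conditions, 2 at day 1 and 1 for day 4 against day 1. With RLE normalization, 0 members were called at day 1 and for day 7 against day 1 (1 each in edgeR with TMM). With total counts only, 0 genes were called at day 7 and 513 for day 7 against day 4. Without a filter, 2252 genes and 1 member were called over the 4 conditions, 250 genes at day 4, 627 at day 7 and 1265 for day 7 against day 4. With at least 10 counts in every library, 828 genes were called over the 4 conditions, 20 at day 4, 0 at day 7, 880 genes and 0 members for day 7 against day 1, and 355 genes for day 7 against day 4. With the tag family as a covariate, 1066 genes were called at day 1, 33 at day 4, 0 at day 7 and 163 for day 4 against day 1, and 0 members for day 7 against day 1. With the GC trends removed, 0 members were called at day 1 and for day 7 against day 1, and 117 and 55 genes at days 4 and 7. With only the conditions compared, 228 genes and 0 members were called at day 1, 146 genes at day 4, 0 at day 7 and 394 for day 7 against day 4.

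With the replicate block in the 9 libraries after TBI, 56 genes were called for day 4 against day 1, 640 genes and 0 members for day 7 against day 1, and 0 genes for day 7 against day 4. The deviations of same-numbered libraries from their condition means had correlations of -0.84 to 0.27, and not every library correlated best with its own number, so the libraries share only a number. No paired analysis was possible against steady state because those columns carry no label's replicate number.

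Signs turned only for members that were not called. Cebpa at day 4 against steady state (-0.027) was 0.036 in DESeq2, 0.028 with RLE, 0.047 with total counts only, 0.13 with the GC trends removed and 0.078 with only the conditions compared. Lep at day 7 against day 1 (0.0088) was -0.032 in DESeq2, -0.023 with RLE, -0.0015 without a filter, -0.030 with the GC trends removed and -0.28 with the tag family. Lpl at day 7 against day 4 (0.023) was -0.042 in DESeq2 and with RLE, -0.066 with total counts only and -0.088 with the tag family. The tag family also turned Adipoq at day 7 against day 1 (-0.77), Cebpa at day 1 against steady state (-0.11) and at day 7 against day 4 (0.074), Cfd at day 4 against day 1 (-0.23) and Fabp4 at day 4 against steady state (-0.058).

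With 1 library left out at a time, the genes called ranged from 677 to 2030 over the 4 conditions, 252 to 797 at day 1, 19 to 226 at day 4 and 0 to 622 at day 7 against steady state, 87 to 362 for day 4 against day 1, 472 to 2043 for day 7 against day 1 and 15 to 1507 for day 7 against day 4. The members called ranged from 0 to 3 over the 4 conditions and at day 1, 0 to 2 at day 4, 0 to 1 at day 7, for day 4 against day 1 and for day 7 against day 1, and were 0 for day 7 against day 4. The highest member counts against steady state were all found without PBS day 4 replicate 2. Against steady state, log2 fold changes that crossed 0 were those of Cebpa (-0.79 to 0.31), Fabp4 (-0.081 to 0.51), Lpl (-0.31 to 0.22), Plin1 (-0.070 to 1.67) and Pparg (-0.14 to 0.57) at day 4 and of Cfd (-0.14 to 3.68), Fabp4 (-0.33 to 0.13), Lpl (-0.29 to 0.24) and Plin4 (-0.33 to 0.93) at day 7. Between days after TBI they were those of Plin1 at day 4 against day 1 (-1.67 to 0.15), of Adipoq (-0.076 to 1.06), Cfd (-1.24 to 0.20), Lep (-0.59 to 0.50) and Plin1 (-0.76 to 0.69) at day 7 against day 1, and of Cebpa (-1.09 to 0.13) and Lpl (-0.15 to 0.17) at day 7 against day 4.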
